A study of Mus musculus with 4 samples.

Results

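Crym-positive mesenchyme was taken as the barcodes, each standing for 1 captured cell, that held at least 3 UMIs of Crym together with few counts of genes that mark other cells. A UMI, or unique molecular identifier, tags 1 captured RNA molecule. The limits were at most 1 UMI of Foxd1, 2 of Foxl1 and Foxf2 together, 1 of Tcf15, 2 of Arg1, 2 of Epcam and 2 of Cdh5 and Pecam1 together. The rule selected 643 of 14243 barcodes in 4 droplet libraries of mouse embryos on a Swiss Webster background. Each library held pooled embryos of 1 stage and genotype, dissociated and sorted for GFP signal and exclusion of the dead-cell dye DAPI. Controls (Ctrl) were Tbx1Cre/+;Rosa26-GFPflox/+ and conditional mutants (cKO) were Tbx1Cre/flox;Rosa26-GFPflox/+, and each genotype was collected at embryonic day (E) 8.5 and at E9.5. At E8.5 the upper body was dissected, and at E9.5 the pharyngeal apparatus and heart, listed together with the back. In both genotypes Cre came from the Tbx1 locus and switched on GFP, so the sorted cells were those with present or past Tbx1-Cre activity. The knock-in of Cre inactivates its own Tbx1 copy, so the control embryos also carried only 1 working copy of Tbx1.

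The mesenchyme of the pharyngeal region is loose, migratory tissue of mesodermal or neural crest origin that fills the arches and gives rise to connective tissue, cartilage and the walls of vessels. Crym encodes mu-crystallin, a cytosolic enzyme of the ketimine reductase family that binds thyroid hormone in the presence of NADPH. Tgfbi encodes a secreted matrix protein that binds integrins and collagens, Cygb encodes the oxygen-binding haem protein cytoglobin, Ebf2 encodes a helix-loop-helix transcription factor of mesenchymal lineages, and Cxcl12 encodes the chemokine that signals through Cxcr4. These 5 genes formed the marker list of the cells. In the GRCm38.p6 assembly Crym lies at chr7:120186380-120201989, Tgfbi at chr13:56609586-56639359, Cygb at chr11:116645595-116654504, Ebf2 at chr14:67233292-67430952 and Cxcl12 at chr6:117168535-117181368.

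With 1 library per group there was no replicate for any stage or genotype. Values are therefore given with exact 95% intervals for counting error only, and no difference was tested against the spread between embryos. Levels are UMIs per 1000000 UMIs (UPM), the summed UMIs of a gene over the cells of a group divided by all their UMIs. A gene was counted as higher or lower when its level differed by at least 2-fold, that is by 1 on the log2 scale, and it had at least 100 UMIs over both groups.

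The libraries held 25391654 UMIs (Ctrl E8.5), 25847734 (cKO E8.5), 94834703 (Ctrl E9.5) and 104773150 (cKO E9.5). The cKO E9.5 library had been counted on another gene table, with 31053 listed identifiers against 27998 in the other libraries, and values rest on the 27514 identifiers that all tables share. Barcode sequences shared between libraries numbered 55 for the E9.5 pair and 2 to 10 for the other pairs, and no member was among them. No doublet caller was run, and 2 members, both in cKO E9.5, had more than 3 times the median UMI count. In the E9.5 libraries the median UMI count of members was 18416 for Ctrl and 17622 for cKO, against 16428.5 and 15785.5 for the other barcodes.

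The cells were almost all from E9.5. At E8.5, 5 of 1434 barcodes met the rule in Ctrl (0.349%, Wilson interval 0.149 to 0.814) and 5 of 1090 in cKO (0.459%, 0.196 to 1.07). At E9.5, 287 of 5453 barcodes met it in Ctrl (5.26%, 4.70 to 5.89) and 346 of 6266 in cKO (5.52%, 4.98 to 6.12). These 633 cells made up 98.4% of all members. The share in cKO minus that in Ctrl was 0.259 percentage points at E9.5 (interval −0.566 to 1.08) and 0.110 points at E8.5 (−0.424 to 0.752), and both intervals, which cover counting error in 1 library each, include 0. The E9.5 difference depended on the rule: it was 1.60 points with a minimum of 2 Crym UMIs, −0.157 with a minimum of 5, 1.17 with the Crym minimum alone, and 0.00058 after thinning to 10000 UMIs. The dissections differed between the stages, so stage and dissected tissue cannot be told apart in the comparison of shares.

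**Figure D1:**
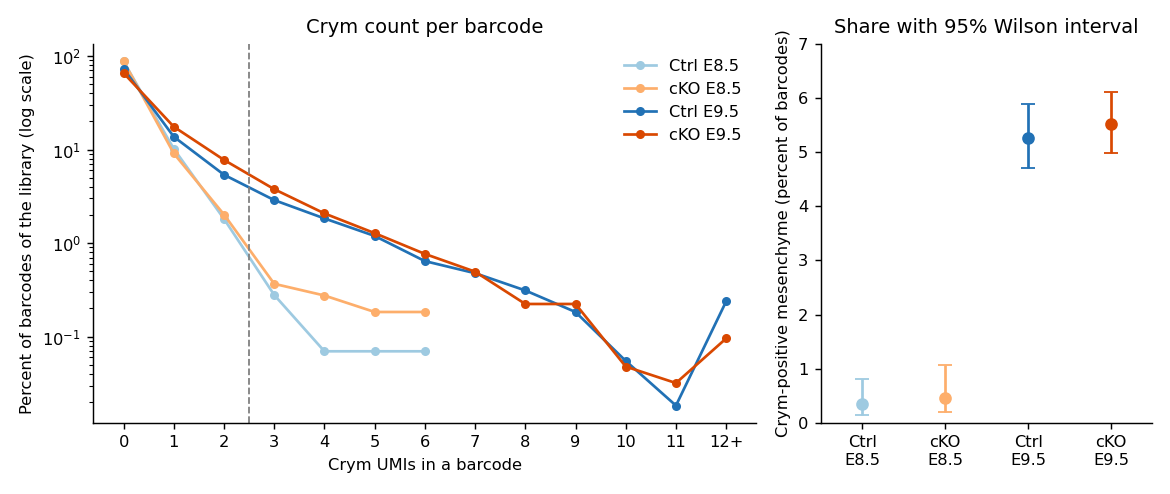
Left, percent of the barcodes of each library (log axis) by Crym UMIs in a barcode, with the minimum of 3 UMIs as a dashed line. Right, Crym-positive mesenchyme as percent of barcodes with 95% Wilson intervals: the E9.5 libraries sit at 5.26% and 5.52%, and the E8.5 libraries at 0.349% and 0.459%.

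Crym counts in the selected cells were low and evenly matched between the genotypes. The 287 Ctrl E9.5 cells carried 1345 Crym UMIs, with a median of 4 and a maximum of 26 per cell, and the 346 cKO E9.5 cells carried 1525, with a median of 4 and a maximum of 16. The levels were 237 UPM (224 to 250) in Ctrl and 242 UPM (230 to 254) in cKO. Because 3 UMIs were required, these levels were fixed in part by the choice of cells and are given as a description. The E8.5 cells held 17 Crym UMIs in Ctrl and 21 in cKO.

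Counts of 3 or more Crym UMIs were rare in cell types that should lack mesenchymal transcripts. Among barcodes with more than 2 Epcam UMIs, an epithelial adhesion molecule, 2 of 730 reached 3 Crym UMIs in Ctrl E9.5 (0.274%, exact interval 0.0332 to 0.986) and 2 of 201 in cKO E9.5 (0.995%, 0.121 to 3.55). Among barcodes with more than 2 UMIs of the endothelial genes Cdh5 and Pecam1 there was 1 of 317 in Ctrl, and among those with at least 10 UMIs of the cardiac troponin gene Tnnt2 there was 0 of 106. Barcodes with more than 1 UMI of Foxd1, a forkhead gene of head and somitic mesenchyme, reached it far more often, in 132 of 1343 (9.83%) in Ctrl and 204 of 1813 (11.3%) in cKO. The Foxd1 limit was accordingly the condition that removed most candidates: of 427 Ctrl E9.5 barcodes with 3 or more Crym UMIs it left out 132, and of 564 in cKO it left out 204. The medians of total UMIs in these classes ranged from 15505.5 to 20436.

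The edge of the rule was not sharp. In Ctrl E9.5, 202 barcodes met all conditions but held 2 Crym UMIs, and 116 members held 3. Tgfbi was at 122 UPM in the former and 137 in the latter, Cygb at 18.2 and 22.8, Ebf2 at 73.5 and 91.6, and Cxcl12 at 207 and 247. In cKO E9.5 the 316 barcodes just outside and the 141 members just inside had Tgfbi at 103 and 86.8 UPM, Cygb at 40.7 and 42.8, Ebf2 at 74.1 and 87.2, and Cxcl12 at 148 and 170.

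Across the whole range of Crym counts, the other markers differed in how far they followed Crym. Tgfbi, among barcodes that met the remaining conditions in Ctrl E9.5, was at 75.1 UPM with no Crym UMI, 118 with 1, 122 with 2, 137 with 3, 133 with 4 or 5, and 187 with 6 or more. In cKO E9.5 the same bins gave 71.7, 93.1, 103, 86.8, 100 and 83.1 UPM. Tgfbi thus reached its highest level in the top Crym bin in Ctrl and in the bin of 2 UMIs in cKO. Cygb went from 8.83 to 35.5 UPM over the bins in Ctrl, and in cKO from 25.9 to 52.7 at 4 or 5 UMIs and back to 27.3 in the top bin. Igf1, the insulin-like growth factor, was at 29.6 UPM without Crym and 71.6 in the top bin in Ctrl, and at 23.9 and 71.8 in cKO. Ptx3, which encodes a secreted pentraxin, was at 15.2 and 30.7 UPM in Ctrl and at 15.6 and 31.9 in cKO for the same bins. Snai1, a zinc-finger repressor of epithelial genes, stood at 45.7 UPM without Crym and 110.5 in the top bin in Ctrl, and at 61.1 and 71.1 in cKO. Pdgfra, the receptor of platelet-derived growth factor that marks much of the mesenchyme, showed no such order: it was at 33.2 and 35.5 UPM in Ctrl and at 33.7 and 27.9 in cKO.

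**Figure D2:**
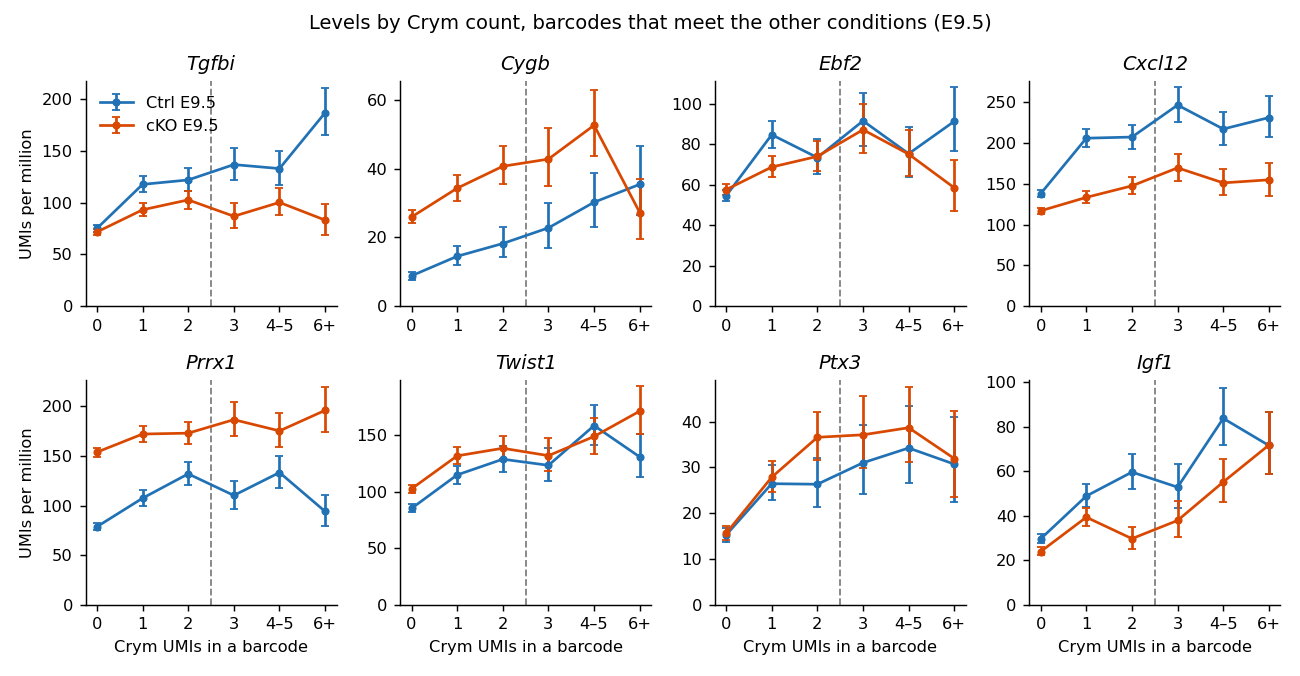
Levels of 8 genes (UPM, axes from 0) in E9.5 barcodes that meet every condition except the Crym minimum, by Crym UMIs in a barcode; bars are exact 95% Poisson intervals and the dashed line marks the minimum of 3 UMIs. Tgfbi in Ctrl stands at 75.1 without Crym and 187 at 6 or more UMIs, while in cKO it stands at 71.7 and 83.1.

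Set against all other barcodes of their library, the E9.5 cells carried their markers in the following amounts. Since the cells were selected on counts in the same cells, these values describe them and test nothing. Log2 differences between cells and other barcodes were taken after adding 10 UPM to each level. In Ctrl E9.5, 3 of 11821 genes were at least 2-fold higher in the members (0.0254%) and 106 lower (0.897%); in cKO E9.5, 1 of 11679 was higher (0.00856%) and 29 lower (0.248%). The 3 genes were Crym itself at a log2 difference of 2.90, Cygb at 1.07 and Tgfbi at 1.05, and in cKO, where only Crym passed, the same genes had 2.62, 0.64 and 0.44. The rule leaves out cells with Epcam, Cdh5 and Pecam1, Arg1, Tcf15 or Foxd1 counts, so part of the lower genes was set by the choice of cells.

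The marker list stood above the other barcodes in both libraries. Tgfbi was at 148 UPM in Ctrl members against 66.2 in the other barcodes, and at 90.9 against 64.6 in cKO. Cygb was at 28.7 against 8.5 in Ctrl and at 42.8 against 23.8 in cKO. Ebf2 was at 85.8 against 44.3 in Ctrl and at 75.9 against 51.2 in cKO. Cxcl12, the most abundant of the 4, was at 232 against 163 in Ctrl and at 159 against 127 in cKO. The 5 markers together came to 732 UPM in Ctrl members and 305 in the other barcodes, and to 610.4 and 297 UPM in cKO, but Crym, which the rule requires, gave 237 and 23.0 UPM of the Ctrl sums and 242 and 31.0 of the cKO sums.

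The shares of cells with a UMI gave the same order once every cell was thinned to 10000 UMIs, which left out 9 Ctrl and 24 cKO members. Tgfbi was then detected in 72.3% of 278 Ctrl members, 38.0% of the other barcodes and 3.98% of Epcam-positive barcodes, and in 54.7%, 40.5% and 4.06% in cKO. Cygb was detected in 19.8%, 7.23% and 1.28% in Ctrl and in 31.1%, 17.8% and 3.05% in cKO. Without thinning the members' shares were 87.1% and 73.1% for Tgfbi and 35.9% and 45.4% for Cygb, in Ctrl and cKO, at median depths of 18416 and 17622 UMIs. Cxcl12 was detected in 80.9% of thinned Ctrl members but also in 50.6% of Epcam-positive barcodes, the highest such share among the marker genes in Ctrl.

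Beyond the markers, the 15 genes with the largest log2 difference in Ctrl E9.5 included several regulators and secreted factors. Ptx3 was at 32.1 UPM in members against 11.8 in the other barcodes, a log2 difference of 0.95, and at 36.4 against 14.2 (0.94) in cKO. Ntrk2, the receptor of brain-derived neurotrophic factor, had a difference of 0.91 in Ctrl and 0.27 in cKO, and Nrsn1, a vesicle membrane protein of neurons, had 0.90 and 0.65. Snai1 had 0.85 and 0.22, and Ebf1, the paralogue of Ebf2, had 0.74 and 0.52. Msc, a basic helix-loop-helix gene of head muscle progenitors, had 0.74 and 0.89. Igf1 had 0.73 and 0.62, and the lymphangiogenic growth factor gene Vegfd had 0.81 and 0.45. Lsamp, a neuronal adhesion molecule, was at 0.78 in Ctrl and 0.08 in cKO, and the ubiquitin ligase March11 was at 0.83 and 0.07. Of 11261 genes counted in both libraries, 43 in Ctrl and 16 in cKO were at least 0.5 higher on the log2 scale, a lower cut than 2-fold. Common to both were 11, or 25.6% of the Ctrl genes and 68.8% of the cKO genes. Crym, which the rule requires, was among them.

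The general mesenchyme genes matched the mesenchymal label in part, with small differences from the other barcodes. Of 15 such genes, 9 were above the other barcodes in Ctrl and 9 in cKO, none by 2-fold, with a median log2 difference of 0.19 in Ctrl and 0.13 in cKO against −0.03 and −0.02 over all genes. Prrx1, a homeobox gene of limb and facial mesenchyme, was at 114 UPM in Ctrl members and 66.9 in the other barcodes, and at 185 and 143 in cKO. After thinning it was found in 60.8% of Ctrl members, 35.6% of all other barcodes and 4.84% of Epcam-positive barcodes. Twist1, a regulator of mesenchymal fate, was at 138 against 82.2 UPM in Ctrl and at 148 against 112 in cKO. Prrx2 was at 431 against 275 and at 282 against 250. Col3a1, a fibrillar collagen of loose connective tissue, was at 208 against 177 UPM in Ctrl and at 328 against 269 in cKO. Vim, the intermediate filament of mesenchymal cells, was lower in members, at 148 against 274 UPM in Ctrl and at 161 against 185 in cKO. Col1a1, a type I collagen gene, was also lower, at 5.81 against 14.8 UPM in Ctrl and at 16.2 against 23.5 in cKO.

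Epithelial, cardiac, endothelial and somite genes had lower sums in the members than in the other barcodes. The limits on Epcam, on Cdh5 and Pecam1 and on Tcf15 remove epithelial, endothelial and somite cells. The sums of those lists were therefore set in part by the rule. No cardiac gene was limited. Even so, 0 of 106 Ctrl and 0 of 55 cKO barcodes with at least 10 Tnnt2 UMIs reached 3 Crym UMIs at E9.5. The Crym minimum left those barcodes out, so the heart sums were also set in part by the rule. The 11 epithelial genes summed to 19.0 UPM in Ctrl members against 376 in the other barcodes, and to 17.3 against 109 in cKO, and 6 and 3 of them were at least 2-fold lower. The 19 genes of heart field and cardiomyocytes summed to 95.1 against 827 UPM in Ctrl, with 10 lower by 2-fold, and to 62.9 against 486 in cKO, with 11 lower. The atrial light chain gene Myl7 was at 6.87 against 214 UPM in Ctrl and at 10.1 against 131 in cKO, and Tnnt2 was at 1.94 against 52.0 and at 0.951 against 26.1. The 12 endothelial genes came to 220 against 461 UPM in Ctrl, with 4 lower, and to 136 against 168 in cKO, with 1 lower. Somite genes came to 113 against 217 and to 105 against 250, and blood genes to 2.29 against 72.7 in Ctrl and 5.23 against 5.27 in cKO. Other lists were closer to the rest of the library: branchiomeric muscle genes came to 442 against 404 UPM in Ctrl and 378 against 385 in cKO, and cartilage and bone genes to 303 against 307 and 263 against 247. Of the epithelial genes 1 in Ctrl and 3 in cKO had no UMI in any member, and of the blood genes 6 and 5 had none.

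Proliferation genes were present in the members throughout. The 20 S phase genes summed to 3013 UPM in Ctrl members, 2675 in the other barcodes and 2695 in Foxd1-positive cells, and 18 of the 20 were above the other barcodes. In cKO the sums were 1995, 1877 and 1795 UPM, with 16 of 20 above. The 20 genes of G2 and M phase differed less, at 4523 against 4505 UPM in Ctrl and 4318 against 4354 in cKO.

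**Figure D3:**
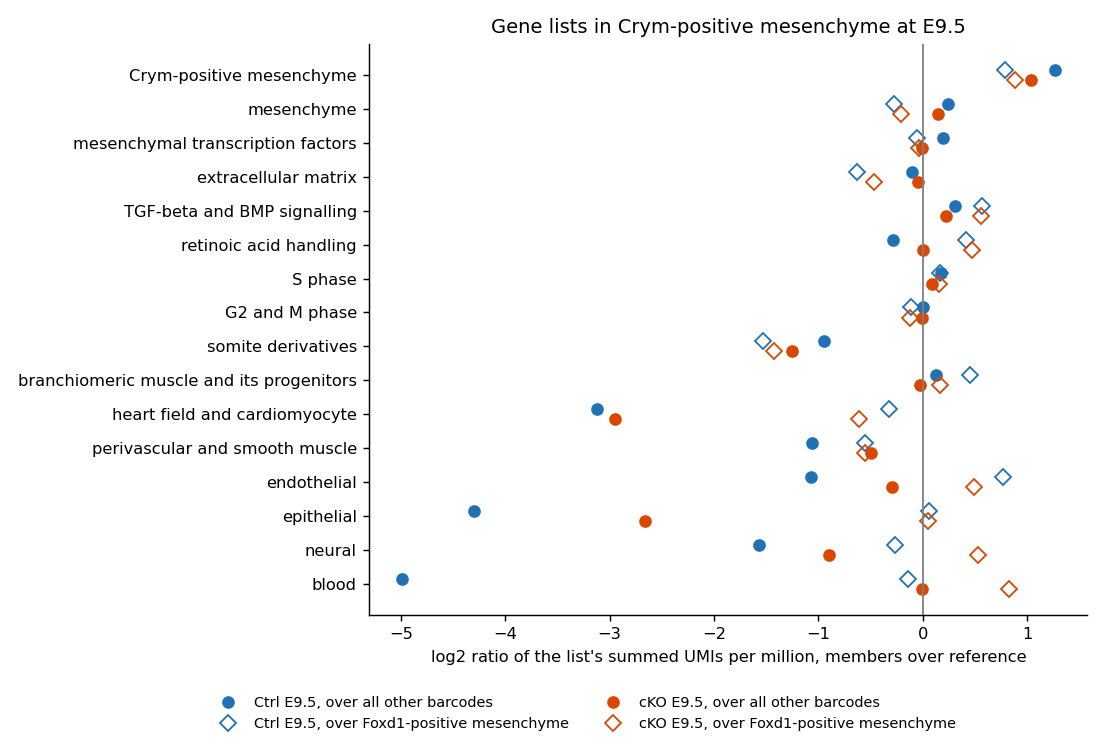
Log2 ratio of the summed level (UPM) of 16 gene lists in Crym-positive mesenchyme at E9.5, over all other barcodes (filled circles) and over Foxd1-positive mesenchyme (open diamonds), Ctrl in blue and cKO in orange. The epithelial list lies far to the left of 0 against all other barcodes (19.0 against 376 in Ctrl) and near 0 against Foxd1-positive cells (19.0 against 18.2).

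Foxd1-positive mesenchyme served as a second reference, and which class is most similar to the members was not measured. These were barcodes with at least 2 Foxd1 UMIs and fewer than 3 Crym UMIs that met the other limits. Ctrl E9.5 had 907 of them and cKO E9.5 had 1195. The rule separates the classes by Foxd1 and Crym, so their differences are given as values. Against these cells, 14 of 11821 genes were at least 2-fold higher in the members and 44 lower in Ctrl. In cKO, 7 of 11679 genes were higher and 17 lower, so few genes differed by 2-fold in either library. The extracellular matrix list, with 60 genes, came to 2967 UPM in Ctrl members and 4588 in Foxd1-positive cells, and to 2752 and 3812 in cKO. The 15 general mesenchyme genes were also lower in the members, at 1536 against 1858 UPM in Ctrl and 1667 against 1931 in cKO. Their median log2 differences were −0.48 and −0.35. The TGF-beta and BMP list, with 27 genes, went the other way, at 2293 against 1545 UPM in Ctrl and 2158 against 1469 in cKO. Id1, a target of BMP signalling, gave part of that difference, at 449 against 190 UPM in Ctrl and 537 against 247 in cKO, and other genes gave the larger part.

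Single genes that stood apart from Foxd1-positive cells were picked after their values were seen. Lum, which encodes the collagen-binding proteoglycan lumican, was at 90.7 UPM in Ctrl members against 539 in Foxd1-positive cells, and at 53.1 against 247 in cKO. Tbx18, a T-box gene of somitic and epicardial mesenchyme, was at 18.5 against 85.5 UPM and at 12 against 51.7. Foxc2, a forkhead gene of head and somitic mesoderm, was at 33.6 against 134 and at 24.6 against 101, and Cthrc1, a secreted collagen-associated protein, was at 31.5 against 116 and at 22.0 against 80.9. Those 4 genes were thus low in the members in both genotypes. Sparcl1, a secreted matricellular protein, was at 30.5 against 157 in Ctrl and 18.7 against 81.8 in cKO. Higher in the members were Gas1, a membrane protein that binds hedgehog ligands, at 124 against 55.8 UPM in Ctrl and 129 against 59.2 in cKO, and Hopx, an atypical homeodomain gene, at 41.4 against 5.12 and 30.1 against 5.71. Msc was at 23.4 against 0.820 and at 24.2 against 2.61. Col3a1 was lower in the members, at 208 against 393 and 328 against 470, while Cxcl12 was at 232 against 235 and 159 against 160, so that this marker did not set the members apart from Foxd1-positive cells.

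The members were not uniform. Variation was measured as the variance beyond counting noise divided by the squared mean, over genes that averaged at least 0.5 UMI in cells thinned to 10000. Its median was 0.0360 over 2772 genes in Ctrl and 0.0468 over 2380 genes in cKO. Among the leading genes of Ctrl were Igfbp5, a binding protein of insulin-like growth factors, at 5.26, and Lum at 5.24. Loxl2, a collagen cross-linking oxidase, followed at 3.5, Igf1 at 2.94 and Sparc, a matricellular protein, at 2.05. In cKO the leading gene was Tagln, an actin-binding protein of smooth muscle, at 18.2, followed by Lum at 6.72, Igfbp5 at 4.61 and Msx1, a homeobox gene of arch mesenchyme, at 3.88. Of the 12 leading genes of Ctrl, 7 were among the 50 leading genes of cKO. Variation was therefore shared in part: Lum, Igfbp5, Igf1 and Nkd1, an inhibitor of WNT signalling, were high in both, with Nkd1 at 1.5 in Ctrl and 2.26 in cKO.

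Small groups of members carried genes of other programmes. They were defined by counts of the genes named here, after the values were seen, and are shown as descriptions. In Ctrl E9.5, 16 of 287 members held at least 3 Msc UMIs, and in cKO 17 of 346. In them Tcf21, a regulator of branchiomeric muscle and epicardium, was at 126 UPM in Ctrl and 91.2 in cKO, against 21.8 and 14.9 in all members. Tbx1 was at 283 and 242 against 97.1 and 101. The mesenchyme genes were low there, with Prrx1 at 14.5 and 54.7 against 114 and 185 UPM, Col3a1 at 19.3 and 46.9 against 208 and 328, and no UMI of Pdgfra in either group. These cells thus met the Crym rule with the genes of head muscle progenitors and few of mesenchyme. Their median UMI counts were 25138 and 21576, above those of all members.

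A second group held at least 3 UMIs of Etv2, a regulator of endothelial and blood progenitors, and numbered 6 cells in Ctrl and 3 in cKO. Lmo2, its partner in those progenitors, was at 287 UPM in Ctrl and 524 in cKO in these cells, against 15.5 and 7.60 in all members, and the VEGF receptor gene Kdr was at 125 and 170 against 10.0 and 4.91. The Ctrl cells had a median of 31616 UMIs and the cKO cells 24626, and the part of doublets in these groups was not tested. A further group, with at least 3 UMIs of Tagln, numbered 6 cells in Ctrl and 37 in cKO, and unlike the Msc cells it held the mesenchyme genes: Col3a1 was at 283 and 424 UPM, and Prrx1 at 85.5 and 219. The smooth muscle actin gene Acta2 was at 250 UPM in the Ctrl cells and 118 in the cKO cells.

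**Figure D4:**
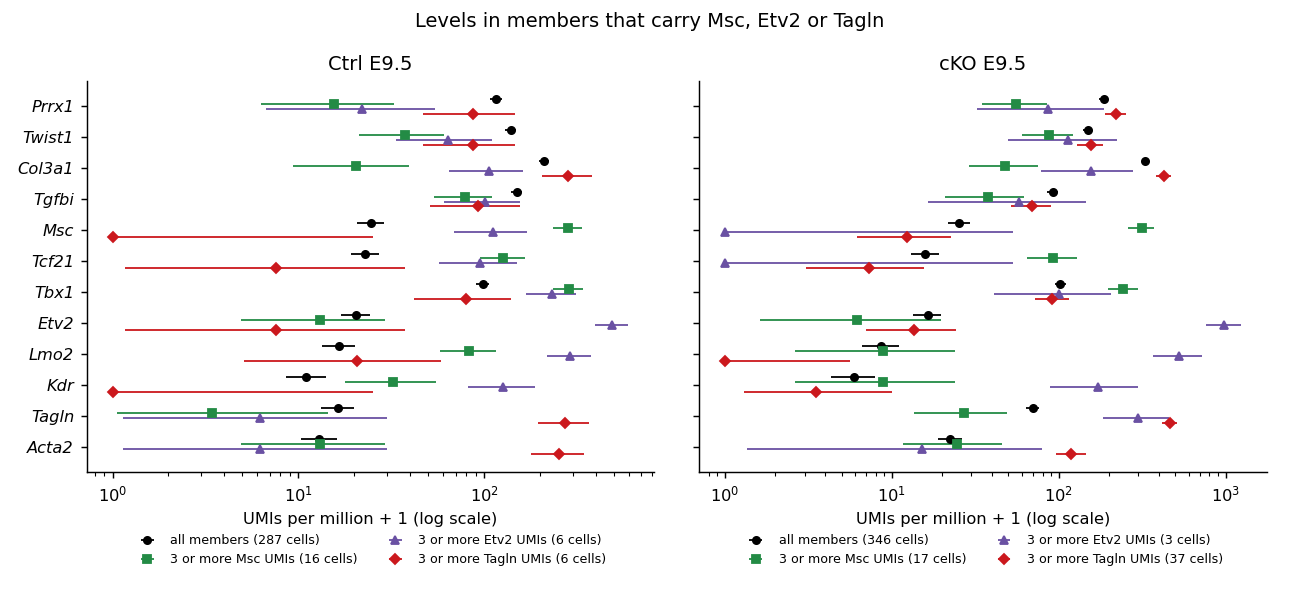
Levels (UPM plus 1, log axis, with exact 95% Poisson intervals) of 12 genes in all members and in members with at least 3 UMIs of Msc, Etv2 or Tagln, Ctrl E9.5 left and cKO E9.5 right. Prrx1 and Col3a1 are low in the Msc cells (14.5 and 19.3 in Ctrl) and Col3a1 is high in the Tagln cells (283 in Ctrl, 424 in cKO).

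Members with and without Tbx1 transcripts differed as well. The Ctrl library had 74 members with at least 3 Tbx1 UMIs and 103 with none, and the cKO library had 89 and 139. Median total counts were 23581 against 16740 UMIs in Ctrl and 19936 against 15138 in cKO, so the depth differed with the Tbx1 count. Igf1 was at 29.2 UPM in the Tbx1-carrying cells against 125 in the cells without in Ctrl, and at 16.6 against 102 in cKO. Ptx3 was at 7.72 against 59.3 and at 22.8 against 45. Prrx1 was at 60.1 against 149 and at 140 against 227, and Col3a1 at 156 against 247 and at 255 against 400. Tcf21 ran the other way, at 56.8 against 2.22 UPM in Ctrl and 36.2 against 0.450 in cKO. Crym itself was at 217 against 252 in Ctrl and 197 against 295 in cKO. Every member needed 3 Crym UMIs, and in cells with fewer total UMIs that minimum gives a higher level. The Crym values therefore do not compare the cells with and without Tbx1.

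The cKO and Ctrl libraries at E9.5 differ in the remaining Tbx1 copy of the labelled lineage, but also in embryo pool and gene table. Genotype cannot be told apart from these, so the ratios describe the libraries. The effect of Tbx1 loss itself was not tested. Tbx1 RNA did not separate the genotypes in these cells, with 551 UMIs in Ctrl (97.1 UPM) and 640 in cKO (101 UPM), a log2 ratio of 0.06 (−0.10 to 0.23), against 0.40 in all other barcodes. The libraries read the 3′ end of transcripts, and whether that end lies in the deleted part is not given in the sources used here, so the value does not check the labels.

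Across 7451 genes with at least 100 UMIs, 98 were higher in cKO (1.32%) and 291 lower (3.91%), with a median log2 ratio of −0.22 in members and −0.22 in the other barcodes. With TMM scaling, which shifts every log2 ratio by 0.19, the counts were 145 higher and 127 lower. Of these genes, 89 of the 98 and 275 of the 291 lay within 1 log2 unit of the same ratio in the other barcodes. Another 7 and 11 lay at least 1 beyond it. That band is as wide as the fold, and nearly all of the 7451 genes lay in it, so it does not set the called genes apart. Fewer passed the fold on their own in the other barcodes, 67 of the 98 and 107 of the 291. The extremes were common to the library. Igf2, the imprinted growth factor, had 1334 UMIs in Ctrl and 56 in cKO, a log2 ratio of −4.73 against −4.88 in the other barcodes. The glycolytic gene Pgk1 had 408 and 5657 UMIs, a ratio of 3.64 against 3.82, and Timm8a1, a mitochondrial import chaperone, had 20 and 1310, a ratio of 5.88 against 5.25. The part of the differing gene tables in these ratios was not tested, and many genotype ratios below are therefore set beside those in the other barcodes. The pools also differed in sex-linked transcripts, named after their values were seen: Xist had 1800 and 6171 UMIs and Ddx3y 94 and 13 in Ctrl and cKO members, log2 ratios of 1.62 and −3.01 against 1.11 and −1.08 in the other barcodes. Their part in the other ratios was not tested.

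The marker genes differed by less than 2-fold. Crym, whose level the minimum of 3 UMIs fixed in both libraries, had a log2 ratio of 0.03 (−0.08 to 0.14), against 0.43 in the other barcodes. Tgfbi had 842 UMIs in 287 Ctrl cells and 574 in 346 cKO cells, a ratio of −0.71 (−0.86 to −0.55), while the other barcodes had −0.04 and Foxd1-positive cells −0.52. Tgfbi was lower in both mesenchymal classes of the cKO library and near equal over all other barcodes together. Cygb went the other way, with 163 and 270 UMIs and a ratio of 0.58 (0.29 to 0.86), which was less than the 1.49 in the other barcodes. Cxcl12 had a ratio of −0.54 (−0.66 to −0.42) against −0.36 in the other barcodes, and Ebf2 one of −0.18 (−0.36 to 0.01) against 0.21.

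Tagln, Myl9 and Actc1, genes of the contractile apparatus, were higher in cKO members by 2-fold while their ratios in the other barcodes were not. The 13 perivascular and smooth muscle genes did not move together: of 5 with 100 UMIs, 1 was higher and 0 lower, 3 had a ratio above 0 and 2 below, and the median was 0.07. Tagln had 87 UMIs in Ctrl and 434 in cKO, or 15.3 and 68.8 UPM, a log2 ratio of 2.17 (1.83 to 2.51), where the other barcodes had 0.39 and Foxd1-positive cells 0.75. After thinning, Tagln was found in 8.99% of Ctrl members and 19.9% of cKO members, and in 5.26% and 6.09% of Epcam-positive barcodes. A few cells held much of it, since 5 cells gave 42.6% of the cKO UMIs and 43.7% of the Ctrl UMIs, and the ratio was 2.18 without the 5 highest cells of each library. It was 1.15 when cells were thinned to 10000 UMIs before the rule was applied, and 1.26 when cells were chosen by the Crym minimum alone. Myl9, the regulatory light chain of smooth muscle, had 232 and 586 UMIs, a ratio of 1.18 (0.96 to 1.41) against −0.03 in the other barcodes and 0.24 in Foxd1-positive cells. Actc1, the cardiac actin gene, had 37 and 87 UMIs, a ratio of 1.08 (0.51 to 1.68) against −0.99, and Acta2 had 68 and 134, a ratio of 0.83 (0.39 to 1.27) against −0.92. Acta2 and Actc1 rested on few cells, with 5 cells giving 70.1% and 49.4% of their cKO UMIs. With the Crym minimum alone Acta2 had a ratio of 0.21, Actc1 one of 0.44 and Myl9 one of 0.88, and after thinning Actc1 had 0.46 and Myl9 0.77, so Actc1 and Myl9 no longer passed the fold under either choice. The ratios in the other barcodes come from a library that holds fewer heart transcripts in cKO, as its heart list came to 486 UPM against 827 in Ctrl.

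Aldh1a3 and Crabp1, genes with retinoid functions, had higher levels in cKO members, and Aldh1a3 passed the fold. Aldh1a3, which makes retinoic acid, had 4 UMIs in Ctrl and 116 in cKO, a log2 ratio of 4.70 (3.31 to 6.6) against 3.05 in the other barcodes, with 36.2% of the cKO UMIs in 5 cells. Crabp1, a cytosolic retinoic acid-binding protein, had 1196 and 2437 UMIs, a ratio of 0.87 (0.77 to 0.97) against 0.22. Subtracting the ratio in Foxd1-positive cells left 0.80 for Aldh1a3 and −0.024 for Crabp1, so much or all of these differences was also found there. Over the 16 genes of retinoic acid handling, 8 had 100 UMIs, of which 3 had a ratio above 0 and 5 below, with 1 higher and 0 lower by 2-fold.

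The type I collagen genes Col1a1 and Col1a2 were higher in cKO members by 2-fold. Col1a1 had 33 and 102 UMIs, a ratio of 1.47 (0.90 to 2.09) against 0.67 in the other barcodes. Col1a2 had 230 and 569, a ratio of 1.15 (0.93 to 1.38) against 0.79. Col3a1, which did not pass the fold, had 1183 and 2071, a ratio of 0.65 (0.55 to 0.76) against 0.61. Fn1, which encodes fibronectin, went the other way, at −0.99 (−1.17 to −0.80) against −1.17. Of 42 extracellular matrix genes with 100 UMIs, 2 were higher and 0 lower, 15 had a ratio above 0 and 27 below, and their median log2 ratio was −0.15 against −0.22 over all genes; both genes are these type I collagens. Of the 15 mesenchyme genes the same 2 were higher and 0 lower, with a median of 0.12. Prrx1 had a ratio of 0.69 (0.55 to 0.83), below the 1.09 in the other barcodes, and Prrx2 had −0.61 (−0.70 to −0.52) against −0.14. None of the 30 mesenchymal transcription factors with 100 UMIs passed the fold in either direction.

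Several genes that were lower in cKO members encode receptors, adhesion molecules or secreted regulators. Il11ra1, the interleukin 11 receptor, had 525 and 58 UMIs, a ratio of −3.33 (−3.75 to −2.94) against −2.13. Lsamp had 106 and 23, a ratio of −2.36 (−3.08 to −1.70) against −1.18. Pcp4, a calmodulin-binding peptide, had 139 and 72, a ratio of −1.10 (−1.53 to −0.68) against 0.65. The Pcp4 ratio depended on the Crym minimum, since it was −0.0024 with a minimum of 2 UMIs, and it was −0.61 after thinning and −0.62 with the Crym minimum alone. Ntrk2 had 391 and 92 UMIs, a ratio of −2.24 (−2.58 to −1.91) against −1.63, and −2.27 in Foxd1-positive cells. Nrp1, the neuropilin co-receptor of semaphorins and VEGF, was at −1.57 (−1.86 to −1.29) against −1.01. Fst, a secreted antagonist of activin and BMP, had 1234 and 478 UMIs, a ratio of −1.52 (−1.68 to −1.37) against −0.92. Subtracting the ratio in Foxd1-positive cells left −0.099 for Fst. Isl1, a homeobox gene of second heart field cells, had 181 and 71, a ratio of −1.5 (−1.92 to −1.10) against −0.94, and Lhx2, a homeobox gene of head muscle progenitors, had 91 and 32, a ratio of −1.66 (−2.29 to −1.06), which was nearer to 0 than the −2.03 of the other barcodes. In Lhx2, 5 cells held 37.4% of the Ctrl UMIs and 50% of the cKO UMIs.

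**Figure D5:**
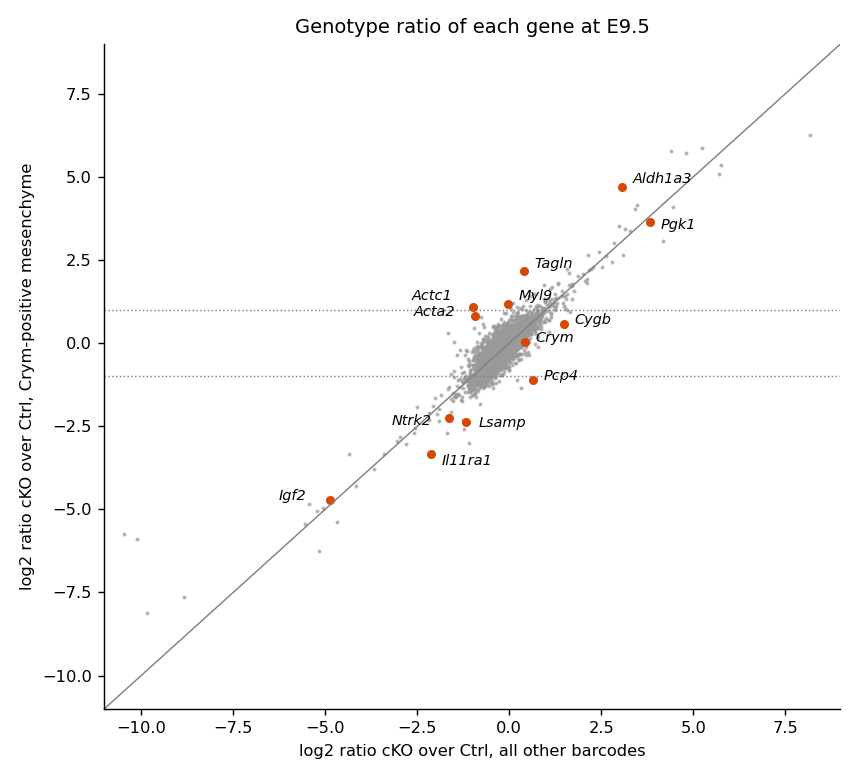
Log2 ratio of cKO over Ctrl at E9.5 for each gene with at least 100 UMIs, in Crym-positive mesenchyme (vertical) against all other barcodes (horizontal), with named genes in orange, equality as a solid line and 2-fold as dotted lines. Tagln lies above the line (2.17 against 0.39), Pcp4 lies below it (−1.10 against 0.65), and Igf2 lies near it (−4.73 against −4.88).

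Dkk1 and Igfbp3, secreted inhibitors of WNT and insulin-like growth factor signalling, were higher in cKO members. Dkk1 had 44 and 120 UMIs, a log2 ratio of 1.29 (0.78 to 1.83) against 0.46 in the other barcodes and 1.28 in Foxd1-positive cells. Igfbp3 had 58 and 137, a ratio of 1.09 (0.63 to 1.56) against 0.20, and 1.75 in Foxd1-positive cells. Each was the only gene of its list that was higher by 2-fold, among 19 WNT genes and 11 PDGF and IGF genes with 100 UMIs. Over all genes counted, 1.32% were higher. Most genes of both lists went the other way, with 12 WNT genes below 0 (list median −0.15) and 8 PDGF and IGF genes (−0.38). In the PDGF and IGF list 1 gene was lower by 2-fold. Of 5 endothelial genes with 100 UMIs, Lmo2 and the adrenomedullin co-receptor Ramp2 were lower, at −1.03 (−1.57 to −0.50) and −1.07 (−1.29 to −0.85), where the other barcodes had −1.51 and −1.35. Over all genes counted, 3.91% were lower. The other barcodes differed in their cells as well. Those with more than 2 UMIs of Cdh5 and Pecam1 numbered 317 of 5453 barcodes in Ctrl and 69 of 6266 in cKO. The part of these cells in the ratios of the other barcodes was not tested. Lmo2 rested on few cells, with 88 UMIs in 16 of 287 Ctrl members and 64.8% of those UMIs in 5 cells.

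The S phase genes, many of which act in DNA replication, had ratios mostly below 0. Of 19 S phase genes with 100 UMIs, 17 had a ratio below 0 and 5 were lower by 2-fold, with a median of −0.72 in members, −0.69 in the other barcodes and −0.22 over all genes in members. The 5 were Mcm2, Mcm6 and Mcm7, subunits of the replicative helicase, Cdc6, which loads it, and Rrm1, a subunit of ribonucleotide reductase, with ratios of −1.06, −1.05, −1.17, −1.04 and −1.03. TMM scaling adds 0.19 to each, which leaves 0 of the 5 past 2-fold and a list median of −0.53. Of the 20 genes of G2 and M phase, 14 had a ratio below 0 and 6 above, with 1 lower by 2-fold. Their median was −0.26 in members and −0.15 in the other barcodes. Single mitotic genes differed, with Mki67 at 0.24, Top2a at 0.01 and Plk1 at −1.06. The glycolysis and hypoxia list had 16 genes with 100 UMIs, of which 1 was higher and 1 lower, at a median of −0.30. The thyroid hormone list, which includes Crym, had 5 such genes of 14, of which 0 were higher and 1 lower.

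At E8.5 the genotypes were represented by 5 cells each, and 382 genes had 100 UMIs over both. Of these, 6 were higher in cKO (1.57%) and 4 lower (1.05%). Ubb, a polyubiquitin gene, had 25 and 182 UMIs, a log2 ratio of 2.11 (1.5 to 2.77) against 1.90 in the other barcodes. Actb, the cytoplasmic actin gene, had 702 and 299, a ratio of −1.99 (−2.19 to −1.79) against −0.81, and Id3, a target of BMP signalling, had 105 and 80, a ratio of −1.15 (−1.59 to −0.72) against −0.41. The marker genes were too sparse to compare: Tgfbi had 1 UMI in Ctrl and 5 in cKO, Cygb 0 and 0, Ebf2 15 and 6, and Cxcl12 3 and 8. For a sum of 0 the exact interval reached 38.9 UPM in Ctrl and 23.0 UPM in cKO. The Tbx1 sums were 19 and 18 UMIs, or 200.2 and 112 UPM.

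The E8.5 cells matched the name mesenchyme only in part. Twist1 had 10 UMIs in Ctrl and 16 in cKO, Prrx1 had 7 and 15, and Prrx2 had 50 and 62, so transcription factor genes of mesenchyme were detected in both libraries. Col3a1 had 1 and 3 UMIs, Vim had 2 and 2, Pdgfra had 2 and 0, and Col1a2 had 0 and 0. Etv2 had 30 UMIs in 2 of 5 Ctrl cells and 38 in 1 of 5 cKO cells, or 316 and 237 UPM against 93.9 and 84.3 in the other barcodes. Kdr had 16 and 18 UMIs. With 5 cells per library these levels rest on single cells.

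Between E8.5 and E9.5 the small early sums set which genes could be compared, because a gene could reach 100 UMIs through the E9.5 cells alone. In Ctrl, 957 of 5614 genes were higher at E9.5 (17%) and 277 lower (4.93%), and in cKO 702 of 5487 were higher (12.8%) and 325 lower (5.92%). The counting interval lay wholly on that side of 0 for 203 of the higher and 147 of the lower genes in Ctrl, and for 195 and 232 in cKO. The dissected tissue also differed, and stage and dissection cannot be told apart.

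Col3a1, Tgfbi, Cxcl12 and Vim were higher at E9.5 in both genotypes, with 1 to 8 UMIs at E8.5. Col3a1 went from 1 to 1183 UMIs in Ctrl, or from 10.5 to 208 UPM, a log2 ratio of 4.31 (1.83 to 9.61) against 3.23 in the other barcodes. In cKO it went from 3 to 2071 UMIs, a ratio of 4.13 (2.59 to 6.41) against 3.30. Tgfbi had a ratio of 3.82 (1.33 to 9.12) in Ctrl, from 1 UMI at E8.5, and 1.55 (0.32 to 3.17) in cKO, from 5 UMIs. The intervals of the Tgfbi ratios overlap. In the other barcodes Tgfbi also rose, from 14.5 to 66.2 UPM in Ctrl and from 16.4 to 64.6 in cKO. Cxcl12 had 2.88 (1.33 to 5.16) and 1.68 (0.69 to 2.89), against 2.88 and 2.10 in the other barcodes. Vim had 2.81 (0.96 to 5.86) and 3.70 (1.84 to 6.74). It rose in the other barcodes too, from 52.6 to 274 UPM in Ctrl and from 51.6 to 185 in cKO. Mfap4, a microfibril-associated protein, had 3.64 (1.16 to 8.95) and 1.20 (0.31 to 2.26). The hedgehog-binding gene Gas1 had 1.97 (0.42 to 4.25) and 1.79 (0.66 to 3.24). Of the 28 extracellular matrix genes with 100 UMIs in Ctrl, 14 were higher and 0 lower, and of 30 in cKO 15 were higher and 2 lower. These genes reached 100 UMIs mostly through the E9.5 cells, a filter that favours genes high at E9.5, so the counts are a description only. The retinoic acid-binding genes Crabp1 and Crabp2 had ratios of 1.32 and 3.04 in Ctrl and 1.71 and 1.82 in cKO, where the other barcodes had 0.02 and 1.53, and 0.63 and 1.07.

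Some glycolytic genes were lower at E9.5, in the members and in Foxd1-positive cells. Of 14 genes of the glycolysis and hypoxia list in Ctrl, 7 were lower and 0 higher, and of 16 in cKO 6 were lower and 1 higher. The list medians were −0.99 and −0.84 in members and −0.87 and −0.97 in Foxd1-positive cells. Slc2a1, the glucose transporter, had log2 ratios of −1.71 (−2.46 to −0.85) in Ctrl and −1.84 (−2.55 to −1.03) in cKO, against −0.16 and −1.11 in the other barcodes. Hk2, a hexokinase, had −1.70 (−2.50 to −0.77) and −2.62 (−3.12 to −2.09) against −1.70 and −2.39, and Bnip3, a mitophagy receptor induced by hypoxia, had −1.52 (−2.14 to −0.83) and −1.5 (−2.01 to −0.95) against −1.29 and −1.25. The ratios of Hk2 and Bnip3 thus lay close to those of the other barcodes. Etv2 had −4.03 (−4.62 to −3.39) in Ctrl and −3.94 (−4.50 to −3.36) in cKO, a level that 1 or 2 cells set at E8.5. Of the mesenchymal transcription factors with 100 UMIs, 6 of 25 were higher and 0 lower in Ctrl, and 8 of 26 were higher and 1 lower in cKO, with medians of 0.30 and 0.58. Twist1 had 0.39 (−0.50 to 1.45) and 0.57 (−0.14 to 1.38), and Ebf1 had −0.08 (−0.59 to 0.48) and −0.64 (−0.99 to −0.26).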

How the data were processed

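Cells were dissociated, sorted and captured with the Chromium Single Cell 3′ v2 kit, and the raw counts, as UMIs of each gene in each barcode, were made and deposited by the authors. The submitters' processing notes name Cell Ranger 3.1.0 with mm10 and GRCm38, and the headers of the E8.5 files name version 3.0.2. Counts were used as deposited. Identifiers were matched over the 27514 shared by all tables, of which 1045 carry a different symbol in the table of the cKO E9.5 library. Members and gene lists were chosen with earlier results of these data known. Counts were summed over cells and divided by total UMIs (UPM). Poisson, Clopper-Pearson, Wilson and conditional binomial intervals at 95% cover counting error. Named genes were those of the rule, the markers and the lists, the 15 highest against other barcodes in Ctrl E9.5, the 10 (cKO over Ctrl at E9.5) or 8 (other comparisons) highest and lowest ratios, also minus the other barcodes, and the 12 most variable genes of Ctrl E9.5. The ranked choices left out mitochondrial, ribosomal protein, haemoglobin and Y-linked genes, Xist and Tsix. Python 3.11.15 (numpy 2.4.6, scipy 1.17.1, pandas 2.3.3, matplotlib 3.10.9) and edgeR 4.0.16 (TMM factors) in R 4.3.3 were used. The steps were tested on simulated data. Coordinates are from RefSeq, GRCm38.p6. Some genes are not reported here.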

Additional observations from a re-analysis of the deposited data

Results flagged for a closer look

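Tmem245, a gene for a membrane protein of unknown function, had ratios of opposite sign at the 2 stages. Its log2 ratio of cKO over Ctrl was −1.62 at E9.5 and 4.38 at E8.5, where 5 cells of each genotype were compared. In the other barcodes the ratios were −1.5 and 1.84. The difference between the stages was not tested.

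Some counts lay outside the comparisons, on identifiers that the gene tables do not share. At E8.5 they took 0.571% of the UMIs of Ctrl members and 0.497% of those of cKO members. At E9.5 the percentages were 0.610% for Ctrl and 0.133% for cKO.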

How the results depend on the processing

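No paired analysis was possible because the labels give no replicate numbers and each group is 1 library, so no result has a test. Depth limits what can be compared at E8.5, where the 5 cells of each library had 94918 and 160604 UMIs. The alternatives that subtract the ratio in Foxd1-positive mesenchyme, or leave out the 5 highest cells of a gene, were chosen after seeing the data. The cause of the shifts below was not tested. With a minimum of 2 Crym UMIs the share was 1.39% in Ctrl E8.5 and at E9.5 it was 8.97% for Ctrl and 10.6% for cKO, and cKO minus Ctrl was 1.60 points at E9.5 and −0.48 points at E8.5. With a minimum of 5 it was 0.0697% (Ctrl) and 0.183% (cKO) at E8.5, and 2.07% and 1.92% at E9.5. With cells thinned to 10000 UMIs it was 0.0994% in cKO E8.5, and at E9.5 3.23% for Ctrl and 3.23% for cKO. With the Crym minimum alone it was 7.83% and 9.0% at E9.5, a difference of 1.17 points.

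The numbers of genes past 2-fold shifted as follows. For cKO over Ctrl at E9.5, 148 were higher with a minimum of 2 Crym UMIs, 56 with 5, 59 after thinning, 58 with no filter on low counts, 23 after subtracting the ratio in all other barcodes and 16 after subtracting that in Foxd1-positive mesenchyme. Lower were 127 with TMM, 94 with no filter, 13 after subtracting the other barcodes and 22 after subtracting Foxd1-positive mesenchyme. At E8.5, 10 were higher with a minimum of 2, 3 with 5, 1 after thinning, 10 with the Crym minimum alone, 10 with TMM, 1275 with no filter and 1 after subtracting the other barcodes, and 1415 were lower with no filter and 1 after that subtraction. For E9.5 over E8.5 in Ctrl, 236 were higher with a minimum of 5, 564 after thinning, 1458 with no filter and 455 after subtracting the other barcodes, and 152, 992, 470 and 553 were lower with a minimum of 2, of 5, no filter and that subtraction. In cKO, 362 were higher with a minimum of 5, 223 after thinning and 459 after subtraction, and 153, 1041, 212 and 204 were lower with a minimum of 5, thinning, TMM and subtraction. Against other mesenchyme in place of all other barcodes, 15 of 11821 genes were higher and 45 lower in Ctrl members, and 7 and 18 of 11679 in cKO members. With a minimum of 5 Crym UMIs, 5 were higher than all other barcodes in Ctrl and 2 in cKO, and with a minimum of 2 there were 2 in cKO.

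Median log2 ratios of cKO over Ctrl at E9.5 under TMM, and after subtracting the other barcodes, were −0.53 and −0.046 for S phase genes, 0.32 and −0.079 for mesenchyme, 0.24 and −0.10 for mesenchymal transcription factors, 0.040 and 0.072 for extracellular matrix, −0.11 and −0.046 for glycolysis and hypoxia, and 0.017 and −0.40 for the 5 markers. Among genes past 2-fold, signs turned for Igf2, at 0.15 after subtracting the other barcodes and 0.34 after subtracting Foxd1-positive mesenchyme, for Lhx2, at 0.37 after the former, and for Ntrk2 at 0.029 and Igfbp3 at −0.67 after the latter. Below 2-fold, the first subtraction also turned Cygb (−0.91), Prrx1 (−0.40), Crym (−0.40) and Tbx1 (−0.33), and the second turned Cygb (−0.59), Crym (−0.30), Tbx1 (−0.35), Crabp1 (−0.024) and Cxcl12 (0.010). Crym was also below 0 after thinning (−0.13) and with the Crym minimum alone (−0.046), and Ebf2 was above 0 under TMM (0.017).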
